A study of Apera spica-venti with 7 samples.

Results

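The young plant at emergence and the root of the grown plant were compared in Apera spica-venti (loose silky-bent), a weedy annual grass of winter cereals. The comparison took the assembly of whole germinated seeds at BBCH 09, the stage at which the coleoptile breaks the surface, and the assembly of roots from plants at BBCH 34 to 36, when the stem lengthens. BBCH is the decimal scale of plant growth stages. Members were the transcripts whose predicted peptide had a best homologue with an e-value of at most 0.1, without homologues from 9 green-algal species codes. They are called annotated transcripts below. BBCH 09 held 40398 of them and root 38409, together 78807 of 250476 in the 7 assemblies under the same rule.

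Both libraries came from a seed lot mixed from 6 Danish populations susceptible to herbicides, and no treatment is named for either. The seeds lay on wet filter paper in dishes in a climate cabinet at 10 °C by night and 17 °C by day, and 0.7 g of whole germinated seeds, kept in a stabilizing reagent (RNAlater) in the cold, was taken. The roots, 0.5 g, came from plants in a greenhouse and were frozen in liquid nitrogen, and the seeds were ground for longer. RNA with an integrity number of 6 or more was pooled from at least 3 individuals. The data analysed hold 1 library per tissue, and a further root library that the methods mention was not analysed here. With no replicates, differences between plants could not be measured, and intervals below cover counting error only. Tissue, age, growing conditions and the handling of the samples cannot be told apart. Read depth was evened out by k-mers and like contigs were merged before deposit, so that the counts are numbers of assembled sequences and not levels of expression.

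A grass seedling at emergence lives on the reserves of its endosperm, which amylases and proteases release, while gibberellin drives the release and the coleoptile grows by loosening its walls. Its primary root is part of the same sample. A grown grass root takes up nitrate, phosphate and iron, the last through phytosiderophores made from nicotianamine, builds lignin and suberin barriers, and meets soil microbes with receptor kinases and NLR immune receptors. Cytochrome P450s and glutathione S-transferases serve hormone and defence metabolism in both, and in weeds they are also known for the detoxification of herbicides.

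The assemblies were close in size and in annotation, but not in the reads behind them. In the paper, root kept more paired reads after quality control and normalization than any other individual library, BBCH 09 included. Whether this difference in reads shaped the counts below was not tested. GO names were carried by 74.9% of the annotated transcripts of BBCH 09 and 74.8% of those of root, enzyme codes by 13.7% and 13.4%, and informative descriptions, those that name a protein, by 23.4% and 23.6%. Median peptide length was 190 amino acids in BBCH 09 and 203 in root, and median similarity to the homologue was 85% in both. In addition to the algal homologues, 1786 transcripts of BBCH 09 (4.42%) and 1757 of root (4.57%) had their best homologue in a species outside the grasses, against 2.45% to 3.28% in the other 5 assemblies. The non-grass homologues had a median similarity of 67% in BBCH 09 and 70% in root. For retrotransposons, histones, ribosomal proteins and the cell cycle the counts of grass homologues alone are given beside the result.

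The markers that the labels would lead one to look for did not separate the tissues. Seed storage proteins were named on 7 transcripts of BBCH 09 and 4 of root, and oil body and desiccation proteins (oleosins, caleosins, dehydrins and late embryogenesis abundant proteins) on 14 and 13. Starch breakdown enzymes had 35 and 27 transcripts, among them alpha-amylase with 9 in each. By enzyme code (3.2.1.1), alpha-amylase was on 14 and 9 (1.48-fold in BBCH 09, 0.596 to 3.87). The description casp, named after the Casparian strip membrane proteins of the root endodermis, had 28 and 29. It matched 26 and 25 proteins, at similarities down to 44% in BBCH 09 and 64% in root. Leaf had 18 such transcripts and stem 22, so the name does not mark the endodermis here. Root hair, root cap and root growth proteins had 7 and 10, nearly all of them root hair defective 3 homolog (7 and 8), a GTPase named after an Arabidopsis mutant, while root cap 2 was found on 1 root transcript. Photosynthetic light reactions had 44 transcripts in BBCH 09 (0.109%) and 40 in root (0.104%), while leaf had 55 and the highest share of the 7 assemblies (0.194%). The counting interval of the ratio of shares held 1 for each of these lists.

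The 2 assemblies held about as many of each other's proteins as other pairs did. Of the 38955 database proteins matched by either, 19021 (48.8%) were matched by both, which is 65.0% of those of BBCH 09 and 66.3% of those of root. This was the 8th highest share among the 21 pairs of assemblies. Of 4044 distinct informative descriptions 2478 (61.3%) were found in both, or 75.9% of those of BBCH 09 and 76.0% of those of root, again in the 8th place. The 6 seed pairs and the pair of root and stem stood above it for matched proteins. Descriptions found in both were mostly general, since 96.1% of them were also found in a seed stage from BBCH 05 to BBCH 08 and 89.5% in leaf or stem.

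The composition by GO name was nearly the same in both assemblies. Of 4120 GO names found in either, 1136 were carried by at least 10 transcripts of 1 of the 2, and the ratio of their shares (BBCH 09 over root) had a median of 1.00, with 0.657 at the 5th and 1.49 at the 95th percentile. A GO name was called where its shares differed by 2-fold or more and their 95% Wilson intervals did not overlap. No GO name was called in BBCH 09 (0%) and none in root (0%). At any ratio, 1 name had intervals apart with the higher share in BBCH 09 (0.088%) and 4 in root (0.352%). The 95% counting interval of the ratio itself lay off 1 for 8 names higher in BBCH 09 (0.704%) and 16 higher in root (1.41%). With 95% intervals, counting error alone can leave as large a share of names off 1, so the single names below are descriptions. The names are nested and share transcripts.

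**Figure D1:**
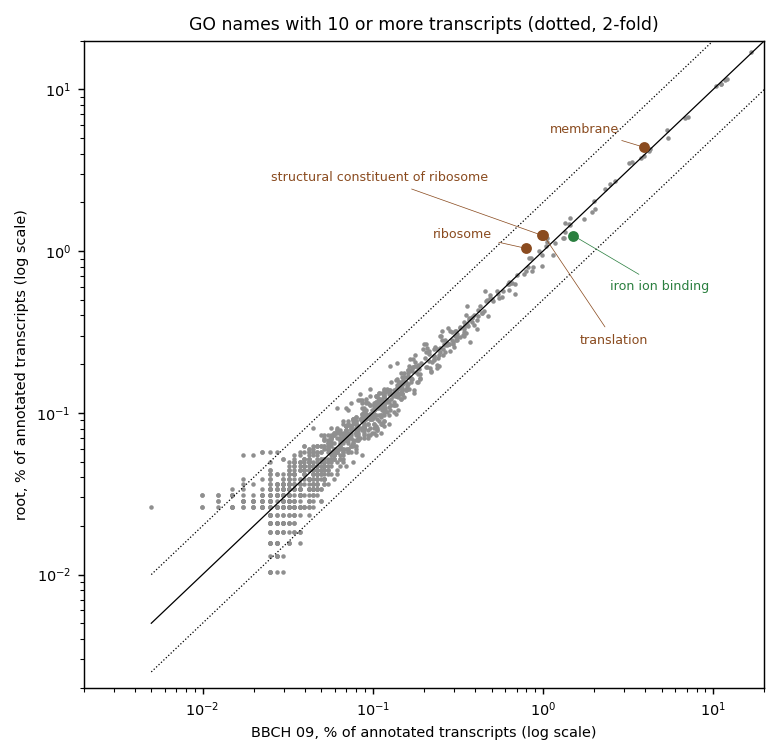
Share of annotated transcripts carrying each of the 1136 GO names in BBCH 09 (x axis) and in root (y axis), in percent on log scales. Points are GO names, the solid line marks equal shares and the dotted lines a 2-fold difference. The 5 names with Wilson intervals apart are coloured, and they lie well within 2-fold of the line, the largest ratio being 1.30 for ribosome.

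Iron ion binding was the 1 name with intervals apart and the higher share in BBCH 09. It was on 610 transcripts (1.51%) of BBCH 09 and 479 (1.25%) of root, 1.21-fold more in BBCH 09 with a counting interval from 1.07 to 1.37. The name collects heme and non-heme oxygenases. Of the iron-binding transcripts, 383 (62.8%) in BBCH 09 and 295 (61.6%) in root also carried monooxygenase activity, the term of cytochrome P450s. Without these, 227 and 184 transcripts remained, with a ratio of 1.17 and an interval from 0.961 to 1.43. Monooxygenase activity as a whole was on 397 and 310 transcripts (1.22-fold, 1.05 to 1.42), and the oxidoreductases that use paired donors and molecular oxygen on 464 and 364 (1.21-fold). Of the hydrolases, cysteine-type peptidase activity, the term of the papain-like proteases that digest storage protein, was on 151 and 105 transcripts (1.37-fold, 1.06 to 1.77). Among peptides of at least 200 amino acids it was on 56 and 58, and the ratio turned to 1.01 in favour of root. Proteolysis (784 and 670), the transfer of hexosyl groups (275 and 209), oxidoreductase activity (819 and 696) and oxidation-reduction process (2201 and 1928) made up the 8. BBCH 09 had the highest share of the 7 assemblies for each of them.

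The names higher in root included those of mobile elements, ribosomes, nucleosomes, laccases and protease inhibitors, as well as broad names such as membrane. RNA-dependent DNA biosynthetic process, the copying of retrotransposons, was on 7 transcripts of BBCH 09 and 21 of root (3.16-fold, 1.29 to 8.79), RNA-directed DNA polymerase activity on 8 and 21 (2.76-fold), and DNA integration on 185 and 217 (1.23-fold). Membrane, a name for any membrane protein, was on 1588 and 1685 transcripts (1.12-fold, 1.04 to 1.196). Nucleosome was on 51 and 75 (1.55-fold, 1.07 to 2.25). Serine-type endopeptidase inhibitor activity, the term of Bowman-Birk and subtilisin inhibitors, was on 10 and 22 (2.31-fold, 1.05 to 5.47). Ribosome, translation and laccase names are given with their proteins. The remaining names higher in root were carbohydrate binding (145 and 177), RNA methylation (56 and 78), nucleic acid binding (1299 and 1352) and macromolecule metabolic process (2 and 10). Photosystem I was on 25 and 41 (1.72-fold, 1.02 to 2.96), with the lowest share of the 7 assemblies in BBCH 09 and the second highest in root, whereas photosynthesis was on 83 and 92 and light harvesting on 36 and 38. Names for processes that mark the organs were close: response to auxin was on 60 in each, nitrate transport on 21 and 27, water transport on 29 and 33, root hair elongation on 25 and 29, seed germination on 58 and 60, and nutrient reservoir activity on 39 and 35.

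Retrotransposons gave the clearest difference of the 62 functional groups, which were set by words in the descriptions. They were found on 158 transcripts (0.391%, 0.335% to 0.457%) of BBCH 09 and 251 (0.653%, 0.578% to 0.739%) of root, 1.67-fold more in root with a counting interval from 1.36 to 2.05. The intervals did not overlap, and 2 groups of the 62 were of this kind in root (3.23%) and none in BBCH 09 (0%). The other 5 assemblies ran from 0.346% to 0.476%, all under root, and BBCH 09 was the 6th of the 7. Of the 41 retrotransposon descriptions, 33 had more transcripts in root, 7 more in BBCH 09 and 1 the same number. The median ratio over the 157 descriptions with at least 10 transcripts was 1.04 in favour of BBCH 09. Of the 41, 17 were found in root only against 1 in BBCH 09 only, whereas over all 4044 descriptions these numbers were 781 and 785. The root transcripts stood on 242 Trinity genes and matched 168 proteins, and those of BBCH 09 on 153 genes and 102 proteins, so the ratio was 1.68 with each protein counted once. It was 1.62 among grass homologues and 1.75 among peptides of at least 200 amino acids.

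Long terminal repeat elements fall into the gypsy and the copia class. The Ty3-gypsy subclass had 5 transcripts in BBCH 09 and 25 in root (5.26-fold, 1.98 to 17.6). The root transcripts came from 25 Trinity genes and matched 19 proteins, all from grasses, with peptides of 100 to 548 amino acids and a median similarity of 74%. The other 5 assemblies held 4 to 10. Retrotransposons of no class had 29 and 55 transcripts (1.99-fold, 1.25 to 3.24), and the name retroelement 4 and 12. The Ty1-copia subclass, the largest copia name, had 33 and 30 (root over BBCH 09 0.956, 0.563 to 1.62). Copia-like retrotransposon had 6 and 3, while the smaller copia names opie1 pol and copia-like retrotransposon poly had 0 in BBCH 09 and 3 each in root. DNA transposons, which move without an RNA copy, had 61 transcripts in BBCH 09 and 54 in root (root over BBCH 09 0.931, 0.633 to 1.37). Reverse transcriptase by enzyme code (2.7.7.49) was on 6 and 13.

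Histones were the other group with intervals apart. These proteins package DNA and are made mainly while it is copied. They were on 31 transcripts (0.0767%) of BBCH 09 and 58 (0.151%) of root, 1.97-fold more in root with an interval from 1.25 to 3.15. Root stood above the other 5 assemblies, which ran from 0.0602% to 0.0846%. Each named class of core histone had more transcripts in root. Histone H2A had 16 in BBCH 09 and 29 in root, H2B had 6 and 10, H3 had 2 and 3, and H4 had 3 and 9. Non-grass homologues made up 11 of the 31 and 18 of the 58. Among grass homologues the numbers were 20 and 40 (2.11-fold, 1.203 to 3.80). With each matched protein counted once they were 19 and 33 (1.77-fold), and the intervals overlapped.

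As a list, the enzymes and cyclins of the cell cycle were not higher in root. The list of DNA replication and cell cycle proteins had 52 transcripts in BBCH 09 and 38 in root (1.30-fold in BBCH 09, 0.840 to 2.03). Of these, 1 and 6 had non-grass homologues, and grass homologues alone numbered 51 and 32 (1.51-fold in BBCH 09, 0.954 to 2.43). Its 3 largest differences were higher in BBCH 09. Ribonucleoside-diphosphate reductase, which makes the deoxynucleotides for DNA, had 11 and 4 transcripts, CDC20 of the anaphase-promoting complex, which triggers the separation of chromatids, had 6 and 1, and cyclin B2-2, a mitotic cyclin, had 5 and 2. Of the 36 members of the list, 13 had more transcripts in BBCH 09, 10 had more in root and 13 were equal. PCNA, the sliding clamp of DNA polymerase, had 1 and 2. The description DNA helicase had 14 and 18. The GO name DNA replication was on 93 and 86. DNA replication initiation was on 46 and 51, with the highest share of the 7 assemblies in root.

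**Figure D2:**
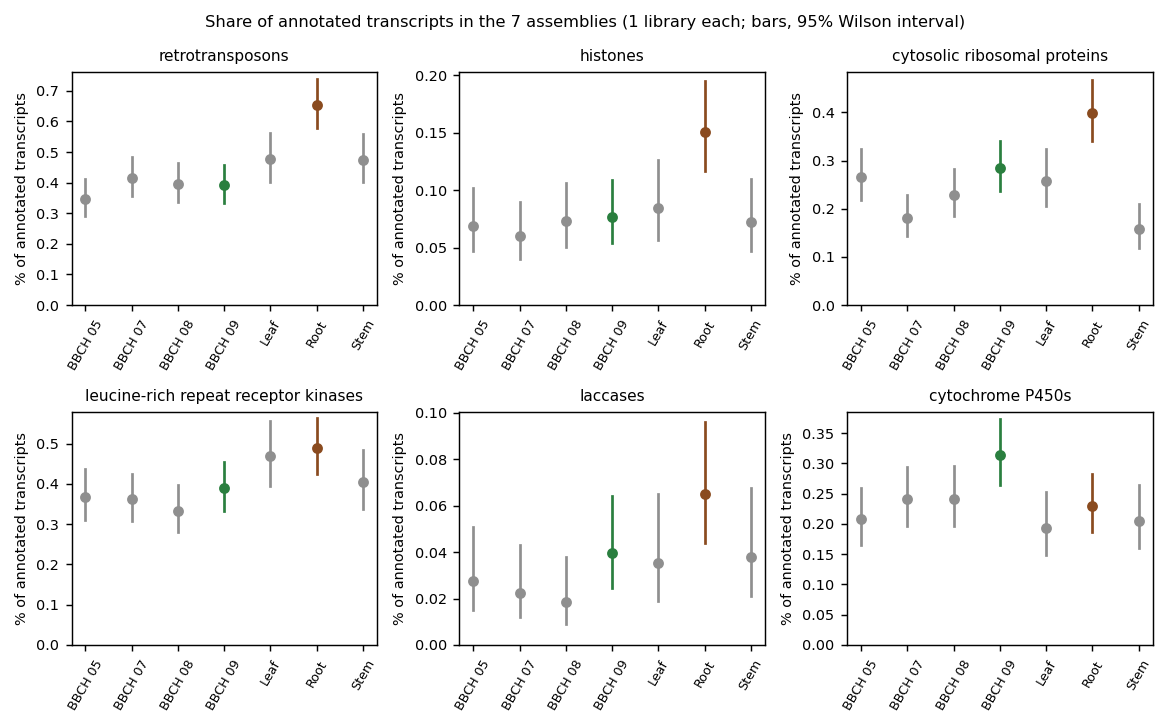
Share of annotated transcripts (percent, y axis from 0) of 6 functional groups in the 7 assemblies, 1 library each, with 95% Wilson intervals as bars. Green marks BBCH 09, brown root and grey the other 5, and root stands highest for retrotransposons (0.653%), histones (0.151%), ribosomal proteins (0.398%), leucine-rich repeat receptor kinases (0.490%) and laccases (0.0651%), while BBCH 09 stands highest for cytochrome P450s (0.314%).

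Cytosolic ribosomal proteins were on 115 transcripts (0.285%) of BBCH 09 and 153 (0.398%) of root, 1.399-fold more in root (1.09 to 1.80). The interval of this ratio lay off 1 for 4 groups higher in root (6.45%) and 1 higher in BBCH 09 (1.61%). Of 65 ribosomal descriptions, 33 had more transcripts in root, 14 more in BBCH 09 and 18 as many. Of the 65, 17 were found in root only and 7 in BBCH 09 only, against 781 and 785 over all 4044 descriptions. The small subunit protein S4 was on 0 transcripts of BBCH 09 and 7 of root, which is at least 2.45-fold against the bound of 3 counts, and S3a on 0 and 6, at least 2.104-fold. The counting error of the root counts puts the lower limits at 1.52 and 1.24, and the Wilson intervals overlapped. S18 was on 0 and 3, while the large subunit protein L19-2 was on 3 and 0. The GO names told the same with more transcripts. Structural constituent of ribosome was on 399 and 481 (1.27-fold, 1.11 to 1.45), ribosome on 323 and 399 (1.30-fold) and translation on 407 and 482 (1.25-fold), all with intervals apart.

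Part of the ribosomal excess in root had homologues outside the grasses. Of the ribosomal proteins, 22 transcripts in BBCH 09 and 38 in root matched a non-grass protein, and 15 and 41 had a similarity under 75%. The median similarity was 91% in BBCH 09 and 85% in root. Among grass homologues the numbers were 93 and 115 (1.30-fold, 0.983 to 1.73). Structural constituent of ribosome was then on 318 and 335, and its ratio of 1.11 had an interval from 0.949 to 1.30 that held 1. Ribosome, on 261 and 282 grass homologues (1.14-fold), and translation, on 328 and 340 (1.09-fold), also had intervals that held 1. The 3 S18 transcripts of root all matched a non-grass protein, as did 1 of the 7 of S4. The organisms that these transcripts came from were not tested.

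The same was seen for other proteins of general use. Rac GTPase, a switch of cell polarity and defence, had 1 transcript in BBCH 09 and 10 in root, the highest ratio among the 157 descriptions with at least 10 transcripts (10.5-fold, 1.496 to 456.5), and 0 in each of the other 5 assemblies. All 10 root transcripts matched a single protein of alfalfa (Medicago sativa), from 10 Trinity genes, with similarities from 54% to 94% and a median of 81%, so the name had 0 transcripts in both assemblies among grass homologues. Tubulins, the subunits of microtubules, had 6 and 13 transcripts, 1 and 6 of them with non-grass homologues, and alpha-tubulin had 0 and 3, all non-grass. Actins had 20 and 28, of which 18 and 24 were non-grass. Na P-type ATPase, a sodium pump that mosses and liverworts possess, had 0 and 4 transcripts and 0 in every other assembly. All 4 matched bryophyte proteins, at a median similarity of 65.5%. Myosin, the motor on actin, went the other way with 3 and 0, of which 2 were non-grass, at a median similarity of 51%.

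Among the receptor kinases and immune receptors, the leucine-rich repeat kinases, a list not limited to immune roles, had the higher share in root. Leucine-rich repeat receptor kinases were on 157 transcripts (0.389%) of BBCH 09 and 188 (0.490%) of root (1.26-fold, 1.01 to 1.57), and on 49 and 85 among peptides of at least 200 amino acids (1.70-fold). The matched proteins were closer in number, with 107 in BBCH 09 and 120 in root. Of 25 descriptions, 11 had more transcripts in root, 8 more in BBCH 09 and 6 as many. The description of FLS2, the Arabidopsis receptor of bacterial flagellin, had 2 transcripts in BBCH 09 and 15 in root (7.89-fold, 1.83 to 71.1). The 15 came from 15 Trinity genes and matched 11 grass proteins, with peptides of 101 to 435 amino acids. Leaf held 13, which was a higher share (0.0458%) than that of root (0.0391%), and the other 4 assemblies held 6 to 8. By share BBCH 09 was the lowest of the 7. NLR immune receptors, which sense microbial effectors inside the cell, were on 550 and 582 transcripts (1.11-fold, 0.989 to 1.25). Among them RPP13 had 65 and 91 (1.47-fold, 1.06 to 2.06) and RGA4 47 and 66 (1.48-fold, 1.00 to 2.20), while nrc1a had 3 and 0. RPM1 had 157 and 150, and the name RPP13 1 had 60 and 50. Of 45 NLR descriptions, 22 had more transcripts in root, 17 more in BBCH 09 and 6 as many. Found in root only and in BBCH 09 only were 2 and 3 leucine-rich repeat names and 11 and 5 NLR names. Over all 4044 descriptions these numbers were 781 and 785. Cysteine-rich and lectin receptor kinases had 184 and 161, and BBCH 09 and root held the highest shares of the 7 assemblies.

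FLS2, Rac GTPase and the Ty3-gypsy subclass were the 3 descriptions called in root among 157 with at least 10 transcripts (1.91%), and none was called in BBCH 09 (0%). With intervals apart at any ratio there were 4 in root (2.55%), the retrotransposons of no class being the 4th, and 0 in BBCH 09 (0%). The interval of the ratio lay off 1 for 7 in root (4.46%) and 0 in BBCH 09 (0%). Descriptions with over 2-fold more transcripts in BBCH 09 were all small, and none had an interval off 1. The reductase named above, P450 71D7 with 17 and 7, glucan endo-1,3-beta-glucosidase 13 with 11 and 4 and galactoside fucosyltransferase, which builds xyloglucan, with 11 and 4 were among them.

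**Figure D3:**
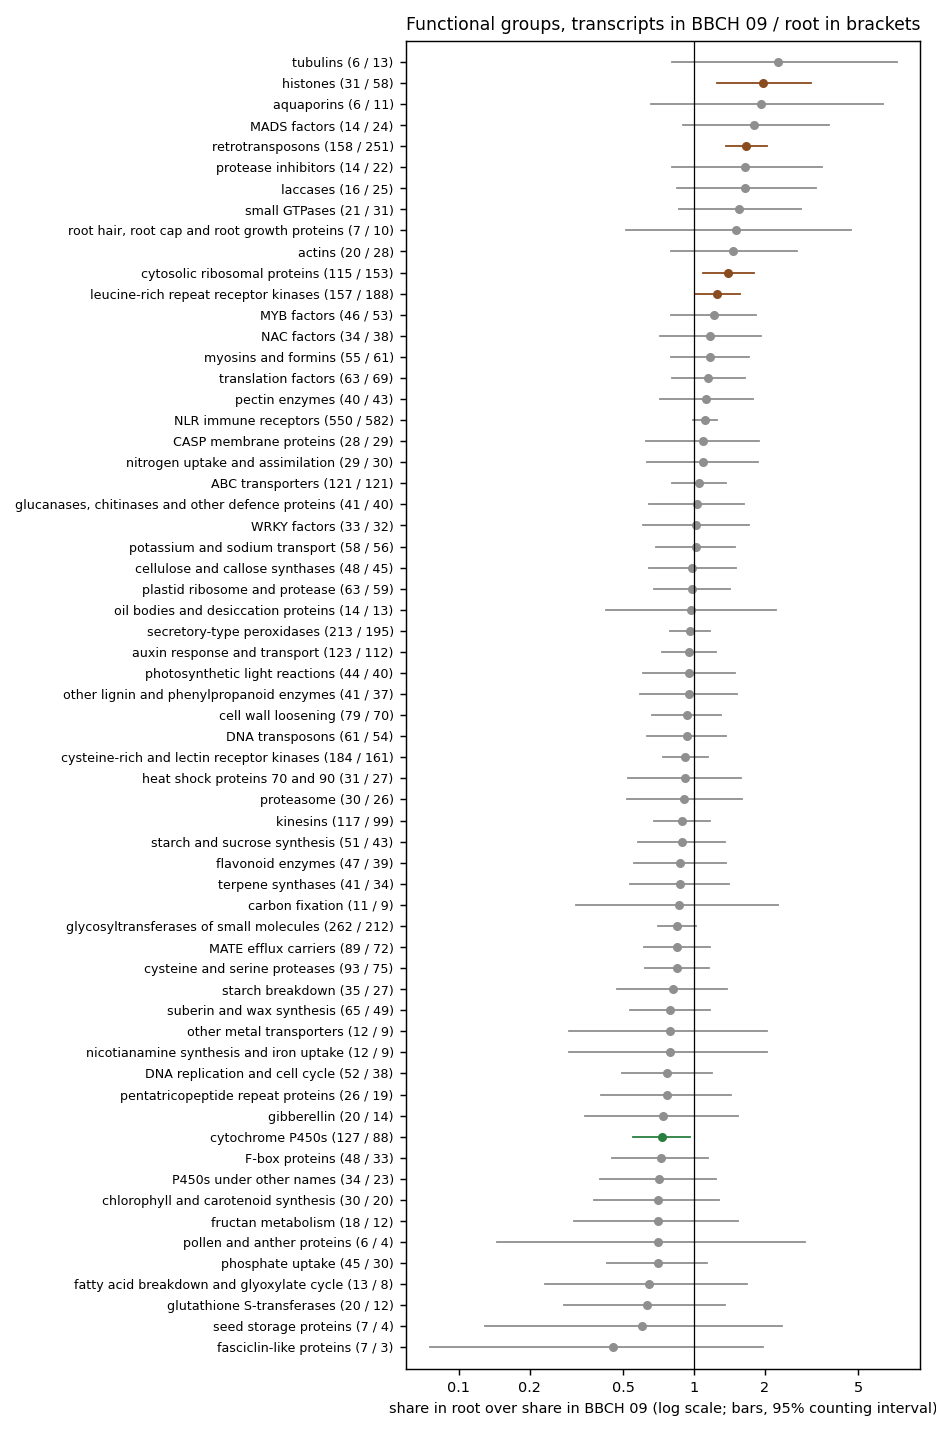
Share in root over share in BBCH 09 (x axis, log scale) for the 62 functional groups, with the transcripts in BBCH 09 and root in brackets and 95% counting intervals as bars. Brown marks the 4 groups with an interval above 1 (histones, retrotransposons, cytosolic ribosomal proteins and leucine-rich repeat receptor kinases), green the 1 below 1 (cytochrome P450s), and the intervals of the 57 grey groups hold 1.

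Laccases, the copper oxidases that polymerise lignin in thickening walls, were the enzyme whose ratio by code had an interval off 1. Enzyme code 1.10.3.2 was on 8 transcripts of BBCH 09 and 21 of root (2.76-fold, 1.18 to 7.21). It was 1 of 129 enzyme codes with at least 10 transcripts, and the only one of them with such an interval in root (0.775%). No code did so in BBCH 09 (0%), no code had intervals apart in BBCH 09 (0%) or root (0%), and none was called in BBCH 09 (0%) or root (0%). Among peptides of at least 200 amino acids the code was on 2 and 14 transcripts and was then called. The GO names hydroquinone:oxygen oxidoreductase activity and lignin catabolic process, which both go with laccases, were each on 9 and 22 (2.57-fold, 1.14 to 6.34). By description, laccases were on 16 transcripts (0.0396%) of BBCH 09 and 25 (0.0651%) of root, the highest and the second highest of the 7 assemblies being root and BBCH 09 (1.64-fold, 0.844 to 3.29). The root laccases had a median length of 228 amino acids and those of BBCH 09 of 171.5. The plain name laccase had 12 and 22, and the numbered laccases 3, 4, 9 and 25 had 2 or fewer in each assembly. Other enzymes of the lignin and phenylpropanoid route had 41 and 37. Peroxidases, which also act on lignin, had 213 and 195 and stood higher in both than in any of the other 5 assemblies, whose highest share was 0.382% against 0.527% in BBCH 09 and 0.508% in root.

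Proteins of mineral uptake were shared between the seedling and the root. Nitrogen uptake and assimilation had 29 transcripts in BBCH 09 and 30 in root, the 2 highest shares of the 7 assemblies, of which 20 and 23 had grass homologues. Within it the nitrate transporter had 3 and 10 (3.51-fold, 0.903 to 19.8), while ammonium transporter had 7 and 5 and glutamine synthetase, which fixes ammonium, 13 and 10. Phosphate uptake had 45 and 30, and 34 and 21 of these were purple acid phosphatases, which free phosphate from organic compounds. For iron, the list of nicotianamine synthesis and uptake by description had 12 and 9. Nicotianamine synthase by enzyme code (2.5.1.43) was on 4 and 12 (3.16-fold, 0.956 to 13.4), with the highest share of the 7 assemblies in root and the lowest in BBCH 09. The transporter YSL15, which takes up iron phytosiderophores in rice, had 0 and 2, but 2'-deoxymugineic-acid 2'-dioxygenase, a late enzyme of phytosiderophore synthesis in barley, had 5 and 1. Aquaporins, the water channels, had 6 and 11 (1.93-fold, 0.654 to 6.35), with PIP2-7 on 0 and 2 and PIP2-2 on 3 and 1. The pleiotropic drug resistance 4 transporter had 3 and 10, and ABC transporters as a whole had 121 in each.

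Cytochrome P450s were the 1 group whose interval lay off 1 in favour of BBCH 09. They were on 127 transcripts (0.314%, 0.264% to 0.374%) of BBCH 09 and 88 (0.229%, 0.186% to 0.282%) of root, 1.37-fold more in BBCH 09 with an interval from 1.04 to 1.82. The Wilson intervals overlapped. BBCH 09 had the highest share of the 7 assemblies and root the 4th. Of 39 P450 names, 23 were found in both, 9 in BBCH 09 alone and 7 in root alone. This was close to the division of all 4044 descriptions, of which 2478 were in both, 785 in BBCH 09 alone and 781 in root alone. The largest difference was in P450 71D7 with 17 transcripts in BBCH 09 and 7 in root, followed by the unnumbered cytochrome P450 with 12 and 6 and 81D1 with 7 and 2. P450 71A1 had 6 and 2, 86A2, a family of fatty acid hydroxylases for cutin, had 5 and 1, and 99A2, named from rice diterpenoid synthesis, had 11 and 7.

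The direction for P450s turned with the length of the peptide. Peptides under 200 amino acids numbered 94 in BBCH 09 and 46 in root, and those of at least 200 numbered 33 and 42, for which root had 1.25-fold more. The median length was 153 amino acids in BBCH 09 and 192 in root. A full plant P450 is longer than either, so most of these transcripts were pieces. The 127 transcripts matched 80 proteins and the 88 matched 59, and with each protein counted once root over BBCH 09 was 0.753, with an interval from 0.528 to 1.07. Fragments of 1 gene could not be told from separate genes in the tables. Monooxygenase activity by GO name kept the higher share in BBCH 09 among the longer peptides, with 167 and 156 transcripts, but its interval then held 1 too.

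**Figure D4:**
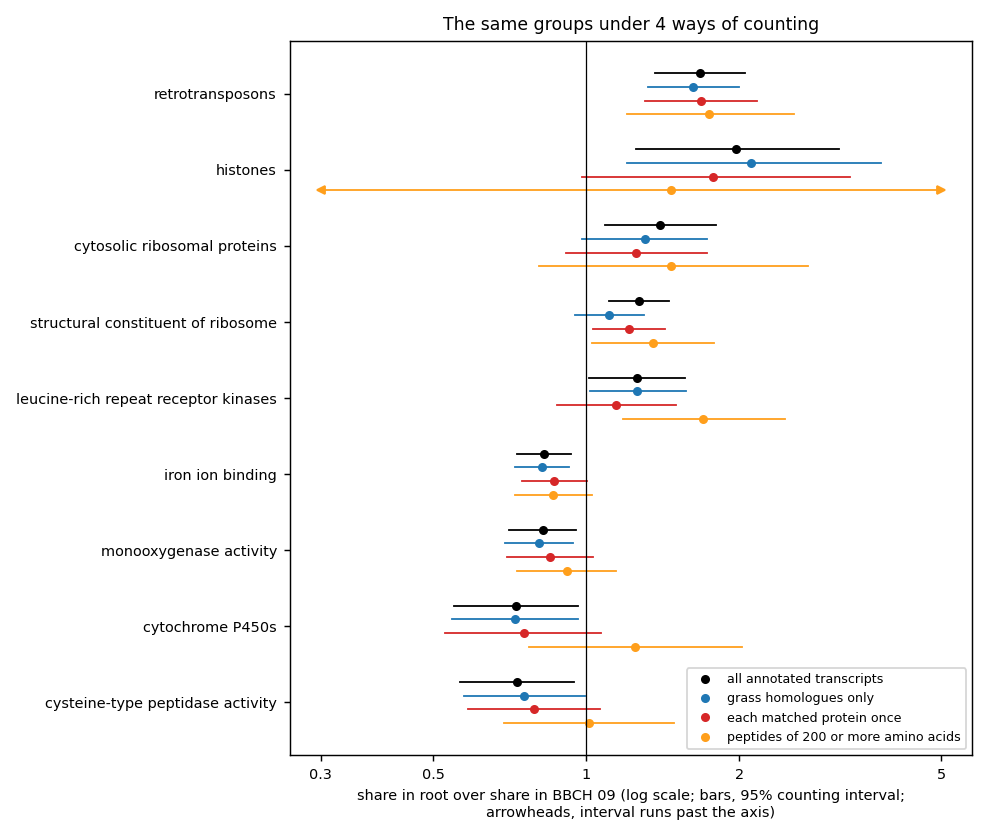
Share in root over share in BBCH 09 (x axis, log scale) for 9 groups and GO names under 4 ways of counting, in colours, with 95% counting intervals as bars and arrowheads where they run past the axis. Retrotransposons stay between 1.62 and 1.75 in all of them, whereas cytochrome P450s lie at 0.729 for all transcripts and at 1.25 among peptides of at least 200 amino acids.

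The P450 names found in only 1 of the assemblies were on 1 transcript each, apart from 98A1, named for the hydroxylation of lignin precursors, which was on 2 of BBCH 09. Those of BBCH 09 alone included 90D2 and CYP85A1 of brassinosteroid synthesis, 86A1 of suberin synthesis, and 71A6, 71C4 and 76C2. Those of root alone were 710A1 of sterol synthesis, 716B1, 71A19, 71C1, 88A1, CYP749A40 and CYP99A1. With a bound of 0.00743% in BBCH 09 and 0.00781% in root for a count of 0, a name on 1 or 2 transcripts did not differ detectably. Other proteins of detoxification differed by no more than counting error. Glutathione S-transferases had 20 transcripts in BBCH 09 and 12 in root (1.58-fold, 0.738 to 3.56), and the plain name glutathione transferase had 4 and 0, with 4 to 6 in the earlier seed stages. The GO name glutathione transferase activity was on 26 and 29 and so went the other way. Glycosyltransferases of small molecules had 262 and 212 (1.18-fold, 0.977 to 1.42), among them UDP-glycosyltransferase 73C5, named for brassinosteroid and xenobiotic glucosides in Arabidopsis, with 4 and 0. Acetolactate synthase (2.2.1.6), the target of a class of grass herbicides, was on 11 and 5 transcripts by enzyme code (2.09-fold, 0.670 to 7.68).

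**Figure D5:**
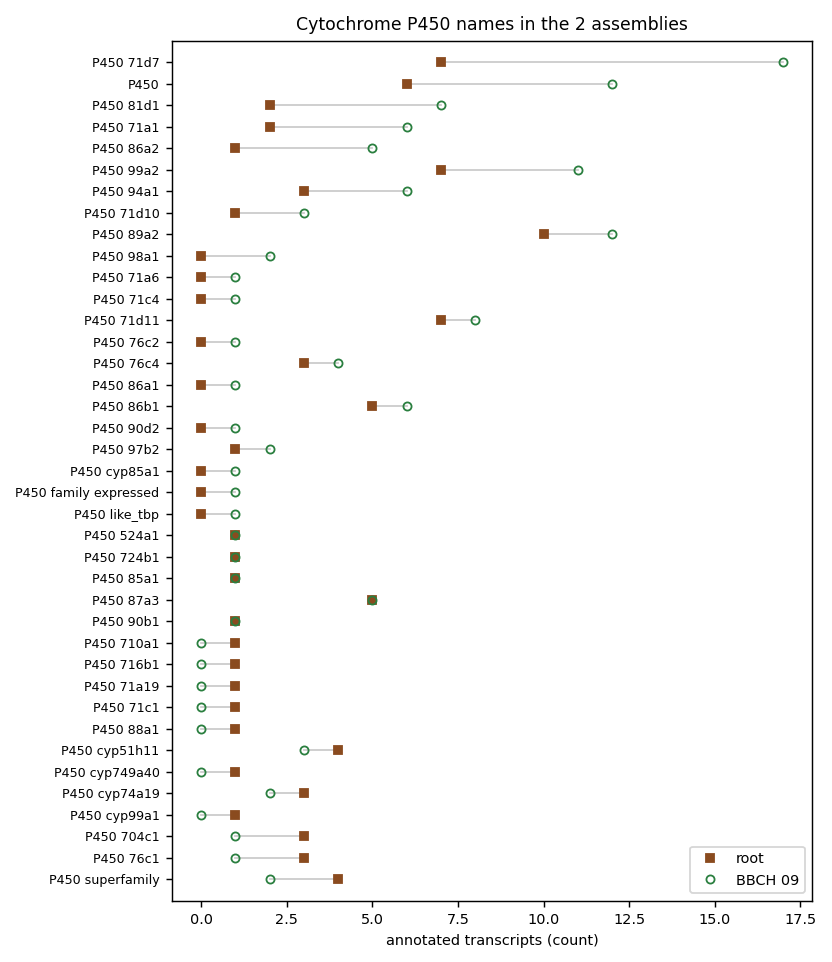
Number of annotated transcripts (x axis) for each of the 39 cytochrome P450 names in BBCH 09 (open green circles) and root (brown squares), joined by a line. The names at the top have more transcripts in BBCH 09, led by 71D7 with 17 against 7, and the 16 names found in 1 assembly only have a symbol at 0.

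Gibberellin proteins were few, and the enzymes that make the hormone were named more often in BBCH 09. The list of gibberellin proteins had 20 transcripts in BBCH 09 and 14 in root (1.36-fold, 0.653 to 2.91). Enzymes of synthesis, with the kaurenoic acid oxidases added, had 16 transcripts in BBCH 09 and 5 in root, against 5 to 10 in the other assemblies. Enzymes of inactivation had 3 and 5, and receptors and DELLA repressors 3 and 5. These sums by role were made after the values were seen and carry no interval. For every single member the counting interval of the ratio held 1. Along the pathway, ent-copalyl diphosphate synthase had 2 and 1, the synthase of ent-kaur-16-ene 3 and 0, ent-kaurene synthase 3 had 1 and 0, ent-kaurenoic acid oxidase 1 had 2 and 0, P450 88A1 of the same step 0 and 1, gibberellin 20-oxidase 3 and 0, and gibberellin 3-beta-dioxygenase 1, which makes the active hormone, 5 and 3. The kaurene synthase name was also found at BBCH 05 and BBCH 08 and in neither leaf nor stem. The name ent-kaurenoic acid oxidase 1 was found in BBCH 09 and P450 88A1 in root, and neither in any other of the 7 assemblies. Of inactivation, gibberellin 2-beta-dioxygenase 8 had 2 and 4.

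Other growth and reserve proteins differed little. Cell wall loosening had 79 and 70 transcripts, the 2 highest shares of the 7 assemblies, with xyloglucan endotransglucosylases on 33 and 31. Chlorophyll and carotenoid synthesis had 30 and 20, chlorophyllide a oxygenase, which makes chlorophyll b and is listed as chlorophyllide a, being on 3 and 0. Enzymes of fatty acid breakdown and the glyoxylate cycle, which turn seed oil into sugar, had 13 and 8. Fasciclin-like proteins had 7 and 3. Auxin response and transport had 123 and 112. MADS factors had 14 and 24 (1.80-fold, 0.896 to 3.77), root being the highest and BBCH 09 the lowest of the 7, and protease inhibitors had 14 and 22, with subtilisin-chymotrypsin inhibitor 2A on 0 and 3 and the Bowman-Birk trypsin inhibitor on 4 and 7. The median ratio over the 62 groups was 1.06 in favour of BBCH 09, and the median over the 157 descriptions was 1.04.

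Descriptions found in only 1 of the assemblies were nearly as many on either side and rested on single transcripts. There were 785 in BBCH 09 and 781 in root, and 665 (84.7%) and 659 (84.4%) of these had 1 transcript. Of those of BBCH 09, 62.5% were also found in an earlier seed stage and 34.3% in leaf or stem. Of those of root, 54.5% were found in an earlier seed stage and 47.2% in leaf or stem. In no other assembly were 260 (33.1%) and 248 (31.8%). For matched proteins the contrast was wider, since 62.3% of the 10263 in BBCH 09 but not root were matched in an earlier seed stage, against 47.3% of the 9671 in root but not BBCH 09. The differences between these shares are descriptions, because the assemblies share sequences and differ in size.

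The descriptions with the most transcripts on 1 side had few. In BBCH 09, 8 names had 4 transcripts and 0 in root. They were enolase of glycolysis, f-box lrr-repeat 4 and u-box domain-containing 6 of ubiquitin ligases, glutathione transferase, a mitochondrial protein of iron-sulfur cluster assembly, orf2 rpo, rpd3, the name of a histone deacetylase, and UDP-glycosyltransferase 73C5. Each of these was also found in at least 1 other assembly. By enzyme code (4.2.1.11), enolase was on 10 transcripts of BBCH 09 and 8 of root, so only this form of its name was missing from root. The gamma subunit of the AMP-activated kinase, a sensor of energy status, had 3 transcripts in BBCH 09 and 0 in all 6 others, all matching 1 grass protein at a median similarity of 97%. In root the names after S4 and S3a had 4 transcripts. They were at hook motif-containing, light-sensor kinase, which was also found in stem with 3, and the sodium pump named above. Argonaute 2 and endoribonuclease Dicer 3b, which act in RNA silencing, had 3 each in root and 0 in BBCH 09, and both were found in earlier seed stages. Dicer 3b was also on 3 transcripts of leaf and 3 of stem, at higher shares than in root. The plain name argonaute had 22 in BBCH 09 and 19 in root. Heat stress transcription factor C-1b and an AP2 transcriptional activator had 3 each in root, and 1 transcript each was found in 1 other assembly. A count of 0 allows a share of up to 0.00743% in BBCH 09, so names with 3 transcripts were at the bound of what these assemblies could show.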

How the data were processed

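Transcripts of 2 assemblies were compared, 1 library each. The authors clipped the reads (Trimmomatic is named in the submitters' processing notes, version not given), normalised their depth by k-mers, ran Trinity, merged like contigs, translated the longest open reading frame, searched plant proteins of UniProtKB with blastp and set GO names and enzyme codes with Blast2GO. The deposited e-value is a score of the best match, mean similarity is a deposited percent, and the deposited length is a number of amino acids. From these, transcripts matched at an e-value up to 0.1 were counted and divided by all annotated transcripts, with 95% Wilson intervals. Ratios have exact (Clopper-Pearson) counting intervals. A GO name, enzyme code or description with 10 transcripts in 1 of the 2 was called at a ratio of 2 (0.5 added to both counts) with intervals apart. There is no test, since there is no replicate. The call rule was tried on simulated counts of GO names, with known changes set in names with many transcripts. This does not cover the small counts of the descriptions called in root. A count of 0 was read as up to 3. Functional groups were sets of words in the descriptions, and grasses were 60 species codes.

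Named were called items, the 10 descriptions on 1 side with the most transcripts, members of groups with 3 against 0 or the 3 largest differences, and P450 names of 1 side; other names were chosen after their values were seen. Members and lists were chosen with earlier results of these data known. Python 3.11.15, pandas 2.3.3, NumPy 2.4.6, SciPy 1.17.1 and matplotlib 3.10.9 were used. No genome and no sequences were used here.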

Additional observations from a re-analysis of the deposited data

Results flagged for a closer look

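The green-algal homologues that were left out of the comparison held a signal of their own. BBCH 09 had 504 such transcripts and root 400, whereas the other 5 assemblies had 36 to 119, and all are above the 3 that a count of 0 allows. These transcripts enter no result of the comparison, apart from the counts with the algae kept.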

How the results depend on the processing

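The numbers of transcripts limit the precision, and the part of sequencing depth was not tested. No paired analysis was possible because each tissue has 1 library, and for the same reason no replicate could be left out. Grass homologues alone, and a further algal code (OSTTA) left out, were chosen after seeing the data. With the ratio of 2 alone and no use of intervals, 8 GO names, 1 enzyme code and 7 descriptions were called in BBCH 09, and 23, 3 and 9 in root. In root 1 GO name (RNA-dependent DNA biosynthetic process) was called with the algae kept, and 1 with the total of transcripts that carry a GO name. With each protein counted once, 1 description was called in root (the Ty3-gypsy subclass, 5 and 19) and 1 functional group had intervals apart, the retrotransposons. Among peptides of at least 200 amino acids, 1 description (retrotransposons of no class, 6 and 22) and 1 enzyme code (1.10.3.2) were called in root, 462 and 507 descriptions were found only in BBCH 09 and only in root, and the ratio of root over BBCH 09 turned to 1.25 for cytochrome P450s and to 1.01 for cysteine-type peptidase activity. Shared descriptions were 63.0% at an e-value of 1e-05, 63.8% at 1e-10, 65.7% among grass homologues and 57.8% with the algae kept. Shared proteins were 50.4%, 51.2%, 51.3% and 48.02% in that order, and 51.5% among the longer peptides. The causes were not tested. Of the remaining values, 95 for the main counts and 631 for single names kept within their limits, and 8 of single names moved. For 5 more no ratio could be had, because BBCH 09 then held none.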
